A study of Mus musculus with 9 samples.

Results

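RNA of the substantia nigra pars compacta, the midbrain nucleus that holds the dopamine neurons lost in Parkinson's disease, was compared between MPTP-treated mice with and without a ketogenic diet based on medium-chain triglycerides. The comparison set 3 libraries of mice given MPTP together with the diet (labelled MPTP + MCT-KD, called the diet group) against 3 libraries of mice given MPTP alone, 6 of the 9 samples of the series. The remaining 3 libraries, from control mice (Ctrl), entered the estimate of spread and are quoted for their levels only. Both groups compared had therefore received the toxin, and mice on the diet alone were not analysed here. The tissue was the same in all groups. The strain, age, MPTP dose, length of feeding, control diet and number of animals behind a library are not given in the labels used here. Members were all genes with an Ensembl identifier whose FPKM averaged at least 0.5 over the 9 libraries. FPKM is fragments per kilobase of transcript per M (the prefix mega) mapped fragments. They numbered 13810 of the 27339 genes in the table, 22036 of which carried an Ensembl identifier. Just inside that minimum lay Zbed6 at 0.50106 and Trpm5 at 0.50109 FPKM, and just outside it Olfr288 at 0.49948 and Glyctk at 0.49912.

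MPTP crosses into the brain, is oxidised in glia, and enters dopamine neurons through the dopamine transporter as a cation that inhibits mitochondrial complex I. On a ketogenic diet fat takes the place of most carbohydrate, so that the liver releases the ketone bodies beta-hydroxybutyrate and acetoacetate. Medium-chain fatty acids reach the liver directly and are readily turned into ketone bodies. In the brain, ketone bodies enter through monocarboxylate transporters and are converted to acetyl-CoA in mitochondria by Bdh1, Oxct1 and Acat1. Fasting and fatty acids also act through the nuclear receptor PPAR alpha, while sterol and fatty acid synthesis are driven by the SREBP transcription factors.

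Library totals lay between 33.2 and 36.0 M counts in the MPTP and diet groups, and mitochondrially encoded transcripts took 6.14% to 7.06% of them. Levels of single genes are given as CPM, counts per M counts after TMM scaling (trimmed mean of M-values), and are not corrected for transcript length. Genes that define the nigra were present in every library, Th between 48.1 and 78.2 CPM and Slc6a3 between 86.2 and 144 CPM in the 6 libraries. Markers of neighbouring tissue differed among libraries of the same group. A score of 23 meningeal fibroblast genes, the mean log2 level with the MPTP mean set to 0, was -0.44, -0.26 and 0.70 in MPTP and -0.26, 1.04 and 1.33 in the diet group. Tph2, which makes serotonin in raphe neurons, was at 10.6, 82.5 and 55.6 CPM in MPTP and 14, 102 and 75.2 CPM in the diet group. Library 1 of each group was thus low in both.

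No single gene passed the test. With edgeR's quasi-likelihood test over all 9 libraries and Benjamini-Hochberg adjustment, 0 of 13810 genes (0%) had an adjusted p under 0.05, and the lowest adjusted p was 0.469. At an unadjusted p under 0.05, 528 genes were higher in the diet group (3.82%) and 570 lower (4.13%), so 48.1% of these were higher. With limma on log2(FPKM + 0.1), which also called 0 genes, 355 were higher and 724 lower, so that the share of higher genes was 32.9%. That fit used the deposited FPKM without TMM scaling, and its median log2 fold change over all genes was -0.019, beside 0.002 by edgeR. The libraries of the diet group all lay above those of MPTP for 938 genes (6.79%) and all below for 983 genes (7.12%). DESeq2 called 17 of 13796 genes (0.123%), 10 higher and 7 lower. A fit of the 6 MPTP and diet libraries with the replicate number as a block called 8 genes (0.0579%), 5 higher and 3 lower, and the same 6 libraries without the block gave 0.

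The differences were small for most genes. The median log2 fold change was 0.0020, with quartiles of -0.0810 and 0.0815. Differences past 1.5-fold were seen for 339 genes, 186 higher and 153 lower, and in 99 of them the libraries did not overlap. They were unevenly spread over levels: 15.4% of genes with a mean FPKM of 0.5 to 1 were past 1.5-fold, against 0.222% of genes between 10 and 100. At a mean FPKM of 1 or more the 95% interval of a log2 fold change reached a median of 0.195 to either side. That is the precision of the fit of all 9 libraries, in which Ctrl entered the estimate of spread.

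**Figure D1:**
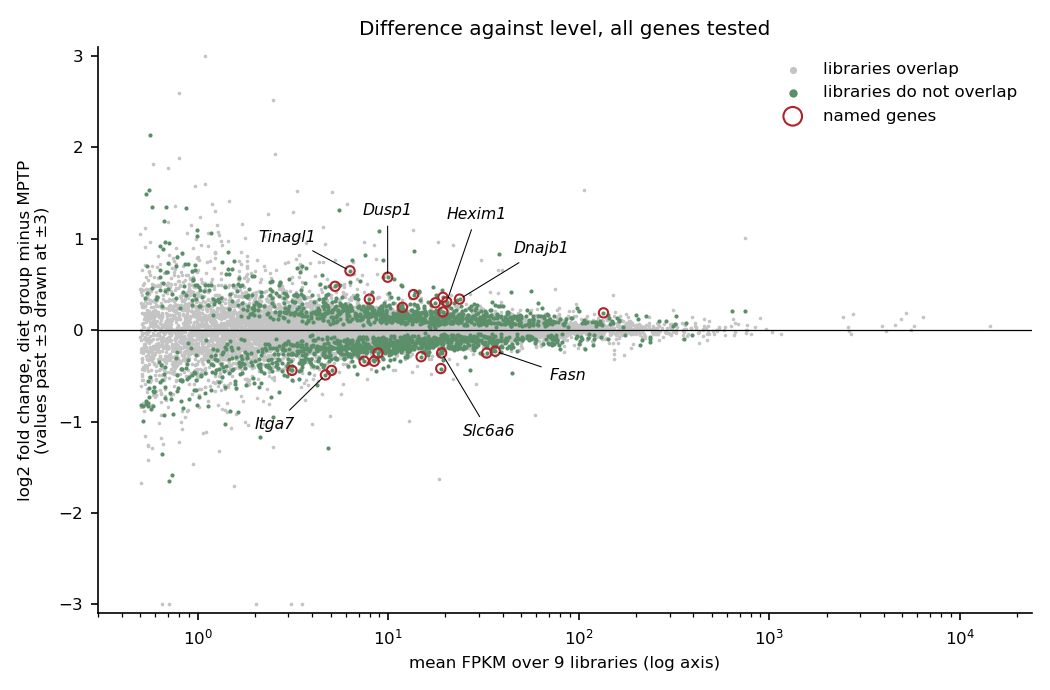
Log2 fold change of the diet group over MPTP (vertical axis) against mean FPKM over 9 libraries (log axis) for 13810 genes. Green points are genes whose 3 diet and 3 MPTP libraries do not overlap, grey points the others, and red circles the 23 named genes, which all lie within 1 log2 unit of 0.

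The 12 genes with the smallest unadjusted p among those higher in the diet group, at a mean FPKM of at least 1, were Hexim1, Dnajb1, Tinagl1, Errfi1, Dusp1, Pcna, Wipf3, Mbd2, Slmap, Mkks, Olfm1 and Ccar1. Hexim1, which inhibits the transcription elongation kinase P-TEFb, was at 69.7, 62.0 and 66.2 CPM in MPTP and at 83.5, 81.7 and 79.8 CPM in the diet group. Its log2 fold change was 0.31 (SE 0.055, adjusted p = 0.469 by edgeR). All 3 diet libraries lay above all 3 MPTP libraries, and Ctrl stood at 77.1 ± 0.598 CPM (SD, n = 3). Hexim1 lies on chromosome 11 at 103116231 to 103119725 (GRCm38).

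Errfi1, a feedback inhibitor of the EGF receptor, was at 36.9, 40.4 and 35.8 CPM in MPTP and 46.6, 49.9 and 51.7 CPM in the diet group (log2 fold change 0.39, SE 0.0803). Tinagl1, a secreted matrix protein of vessels, was at 9.11, 9.30 and 10.2 CPM against 13.2, 17.4 and 14.4 CPM (0.65, SE 0.131). For both genes the groups did not overlap. Pcna, the sliding clamp of DNA replication and repair, was at 29.5, 26.8 and 26.4 CPM against 34.1, 38.4 and 33.9 CPM (0.36, SE 0.0816). Olfm1, a secreted glycoprotein of neurons and the most abundant of the 12, was at 326, 320 and 301 CPM against 359, 361 and 365 CPM. Its diet libraries lay close together, and its log2 fold change was 0.19 (SE 0.0473). The remaining members were Wipf3 (log2 fold change 0.48), Mkks (0.34), Mbd2 (0.30), Ccar1 (0.25) and Slmap (0.20), and their groups did not overlap either. Wipf3 binds actin regulators, Mbd2 binds methylated DNA and Mkks is a chaperonin-like protein of the cilium base. By DESeq2 the adjusted p was 0.00579 for Hexim1, 0.0134 for Dnajb1, 0.0146 for Tinagl1 and 0.0207 for Errfi1 and for Dusp1, while Pcna and the others of the 12 stayed above 0.05.

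Of the 12 genes with the smallest unadjusted p among those lower in the diet group, 11 are reported here: Fasn, Slc6a6, Celsr3, Epha8, Cabin1, Gtpbp6, Alk, Dpysl5, Dalrd3, Itga7 and Col4a2. Fasn, the enzyme that builds palmitate from malonyl-CoA, was at 382, 409 and 414 CPM in MPTP and 334, 345 and 348 CPM in the diet group. The highest diet library lay below the lowest MPTP library, with a log2 fold change of -0.23 (SE 0.0443, 95% interval -0.33 to -0.14, adjusted p = 0.469 by edgeR, 0.00558 by DESeq2). Ctrl stood with MPTP, at 394 ± 4.47 CPM (SD, n = 3). Fasn lies on chromosome 11 at 120805846 to 120824547 (GRCm38). Slc6a6, the taurine transporter, was at 134, 137 and 137 CPM against 116, 112 and 115 CPM (log2 fold change -0.25, SE 0.0497, adjusted p = 0.0113 by DESeq2). Its diet libraries lay below MPTP with a wide gap and below the Ctrl range of 118 to 129 CPM.

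Celsr3, an atypical cadherin of axon tracts, was at 95.1, 97.3 and 112 CPM against 80.2, 78.1 and 82.1 CPM (log2 fold change -0.34, SE 0.0692). Epha8, an ephrin receptor, was at 31.2, 29.0 and 26.7 CPM against 21.4, 20 and 22.5 CPM (-0.44, SE 0.0927). Alk, a receptor tyrosine kinase, was at 19.5, 21.3 and 22.3 CPM against 14.6, 16.7 and 15.3 CPM (-0.44, SE 0.103). In all 3 genes the groups did not overlap. Dpysl5, a growth-cone protein, had a log2 fold change of -0.29, the laminin receptor subunit Itga7 of -0.49 and the basement membrane collagen Col4a2 of -0.34. Cabin1, an inhibitor of calcineurin, Gtpbp6 and Dalrd3 had values of -0.25, -0.42 and -0.25. DESeq2 placed Celsr3 (adjusted p = 0.0184), Epha8 (0.0295), Cabin1 (0.0494) and Gtpbp6 (0.0494) under 0.05 and Alk (0.0944), Dpysl5 (0.106), Dalrd3 (0.125), Itga7 (0.106) and Col4a2 (0.112) above it. The sign of none of these 23 genes turned in 506 values from 22 other settings. They were picked for a small p in the same libraries and their groups did not overlap. A turn was therefore unlikely from the start, and the unchanged signs are no independent support.

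**Figure D2:**
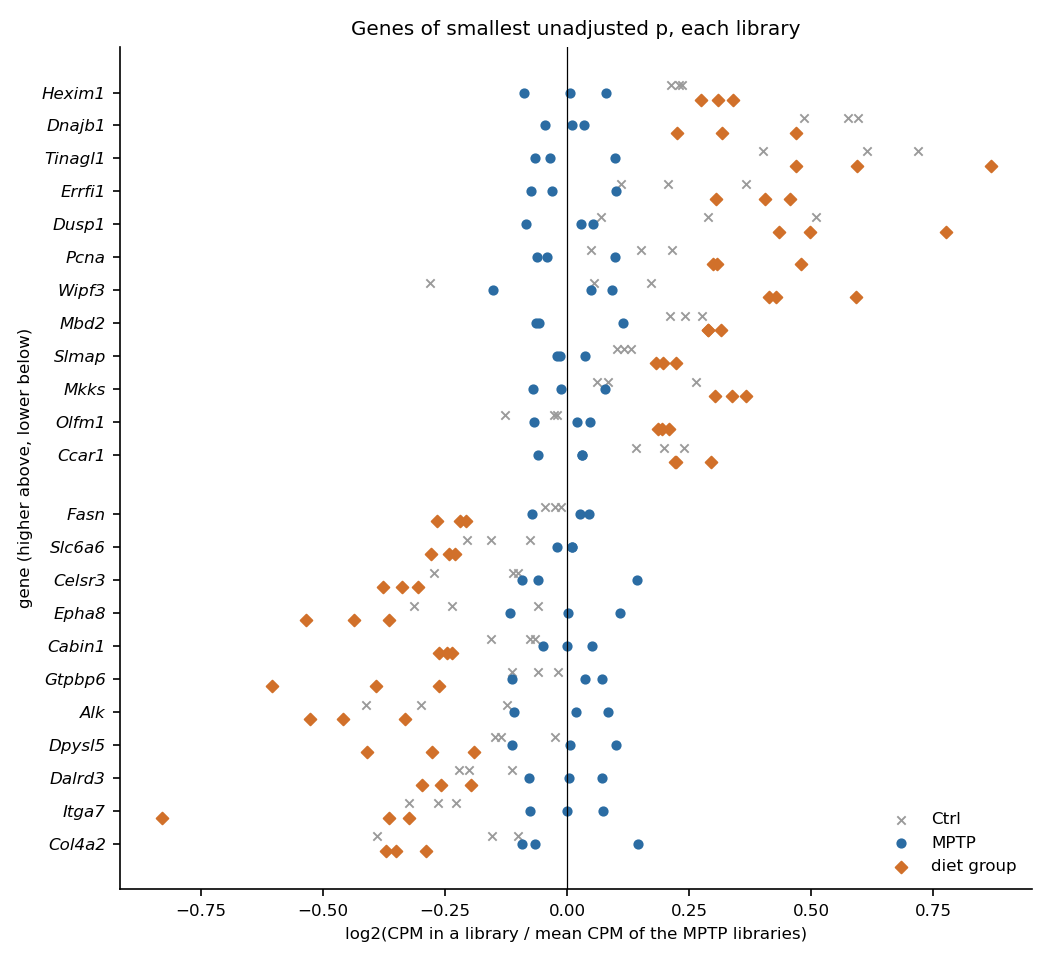
Level of each of the 23 genes in each library, as log2 of its CPM over the mean CPM of the MPTP libraries (horizontal axis). Blue circles are MPTP, orange diamonds the diet group and grey crosses Ctrl, with 3 libraries each; orange and blue do not overlap in any of the 23 genes.

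These MPTP libraries were also the ones set against Ctrl, so a level that is low or high in them enters both comparisons, and the Ctrl values are only given beside the others. For Dnajb1 the log2 fold change of MPTP over Ctrl was -0.55 and that of the diet group over MPTP 0.34, for Tinagl1 -0.58 and 0.65, and for Hexim1 -0.22 and 0.31. For Fasn the values were 0.027 and -0.23 and for Wipf3 0.0070 and 0.48. In Fasn and Wipf3 the MPTP and Ctrl libraries overlapped and the diet libraries lay outside both.

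Heat-shock genes encode chaperones that hold or refold unfolded proteins and are switched on by heat-shock factor 1, which binds inverted repeats of the letters GAA. Of 25 members tested 18 lay above MPTP, with a median log2 fold change of 0.054 beside 0.0020 over all genes. With single libraries left out this median was 0.018 (without diet library 1), 0.023 (without MPTP library 3), 0.028 (without MPTP library 2) and 0.10 (without MPTP library 1). In 5 of the 25 all diet libraries were higher, beside 6.79% of all genes, and in 0 all were lower. Promoters of 3 members that lay entirely above MPTP and held this motif are shown. The motif GAANNTTC or TTCNNGAA, searched on both strands of the RefSeq promoter window around each gene's start (GRCm38.p6), was found in 13 of 19 members with a window and in 17.0% of 27025 genes. Dnajb1, the member with the smallest p, did not hold these letters in its windows. Capitals mark 1 match in each sequence, and a match is no evidence of binding.
Hspa1b, chr17:34959305-34959372, minus strand, motif at position -104 from the start: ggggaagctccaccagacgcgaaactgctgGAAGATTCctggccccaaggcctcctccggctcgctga
Hspb1, chr5:135887772-135887839, plus strand, motif at position -117 (capitals), with another match at -97 left in lower case: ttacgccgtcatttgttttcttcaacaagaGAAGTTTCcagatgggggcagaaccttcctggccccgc
Dnaja1, chr4:40722314-40722381, plus strand, motif at position -124: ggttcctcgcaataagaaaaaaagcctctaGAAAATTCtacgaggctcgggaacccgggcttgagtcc

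Dnajb1, an HSP40 co-chaperone that works with HSP70, was at 58.4, 61.7 and 60.7 CPM in MPTP and 83.4, 75.1 and 70.4 CPM in the diet group. Its log2 fold change was 0.34 (SE 0.0653, adjusted p = 0.469 by edgeR), and the diet libraries lay between MPTP and the Ctrl mean of 88.4 CPM. Hspa1b, an inducible HSP70, was at 7.33, 7.94 and 9.22 CPM against 14.3, 9.51 and 13.4 CPM, with a log2 fold change of 0.60 (SE 0.167). The groups did not overlap, although diet library 2 lay near MPTP library 3. Reads of Hspa1b can be exchanged with its near-identical copy Hspa1a, which overlapped between groups. The small heat-shock protein Hspb1 was at 11.4, 9.30 and 11.2 CPM against 15.7, 13 and 14.3 CPM (0.43, SE 0.120). Dnaja1, another HSP40, had a log2 fold change of 0.12 and Dnajb4 of 0.17, both without overlap. The most abundant constitutive chaperones overlapped between groups: Hspa8 had a log2 fold change of 0.054 (95% interval -0.086 to 0.19) and Hsp90aa1 of 0.028 (-0.073 to 0.13).

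The unfolded protein response of the endoplasmic reticulum raises chaperones and degradation factors in that compartment. Of 23 tested, 19 lay above MPTP (median log2 fold change 0.10), 6 without overlap (beside 6.79% of all genes) and 1, Selenos, entirely below (beside 7.12%). Hspa5, the main HSP70 of this compartment, was at 264, 268 and 279 CPM in MPTP and 347, 287 and 301 CPM in the diet group (log2 fold change 0.21, SE 0.0624). Manf, a secreted stress-induced protein with survival effects on dopamine neurons, was at 36.9, 34.2 and 40.5 CPM against 52.4, 42.8 and 42.7 CPM (0.30, SE 0.0886). In both genes diet library 1 was the highest of the 6 and the groups did not overlap. Dnajc3 and Herpud1, a co-chaperone and a degradation factor, had log2 fold changes of 0.20 and 0.16, and the transcription factor Xbp1 of 0.20. Without diet library 1 the list median was 0.045. The scores of this list were -0.0095, -0.013 and 0.022 in MPTP and 0.16, 0.022 and 0.092 in the diet group. Diet library 2 was thus level with MPTP library 3. The integrated stress response list, the amino acid and translation branch, had 14 of 32 members above MPTP and a median of -0.035.

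Immediate early genes are switched on within minutes by neuronal activity, growth factors or handling. Of 29 tested 23 lay above MPTP (median log2 fold change 0.20), and 8 did so without overlap (beside 6.79% of all genes) against 0 below. The list's scores were -0.034, -0.012 and 0.047 in MPTP and 0.092, 0.31 and 0.32 in the diet group. Diet library 1, low in the meningeal score, was the lowest of its group, and adjusted for that score the list median was 0.13. Dusp1, a MAP kinase phosphatase, was at 17.2, 17.5 and 15.9 CPM in MPTP and 23.8, 28.9 and 22.8 CPM in the diet group (log2 fold change 0.58, SE 0.121, adjusted p = 0.469 by edgeR). Fos was at 7.93, 8.91 and 9.98 CPM against 10.7, 18.4 and 16.7 CPM, a log2 fold change of 0.77 (SE 0.213). Diet library 1 was the lowest of its group for Fos and lay just above MPTP. The orphan nuclear receptors Nr4a1 and Nr4a3 had log2 fold changes of 0.49 and 0.76, and Egr3, at 2.89, 2.87 and 3.68 CPM against 4.35, 5.47 and 9.91 CPM, of 1.06. Egr3 was highest in diet library 3. Dusp1 is shown with its promoter because it led the list and held the full cAMP element TGACGTCA, in capitals, which was found in 2 of 22 members with a window (Btg2 and Dusp1) and, on either strand, in 2.03% of all genes.
Dusp1, chr17:26508578-26508645, minus strand, GRCm38.p6, motif at position -143: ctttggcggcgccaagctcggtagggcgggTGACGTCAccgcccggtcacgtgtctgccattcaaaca

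Glucocorticoid-responsive genes made the list with the highest median apart from the lists of meninges and choroid plexus. Of 26 tested 25 lay above MPTP, the median log2 fold change was 0.37, and 9 had no overlap (beside 6.79% of all genes). Its score was -0.093, 0.094 and -0.0010 in MPTP and 0.052, 0.68 and 0.54 in the diet group, so that diet library 1 stayed within the MPTP range. The meningeal fibroblast score moved with it, being lowest in diet library 1 of its group, and with that score as a covariate the median was 0.13. Tsc22d3, which encodes the glucocorticoid-induced leucine zipper, was at 98.6, 104 and 90.4 CPM in MPTP and 112, 141 and 140 CPM in the diet group (log2 fold change 0.43, SE 0.103, adjusted p = 0.587 by edgeR, 0.0211 by DESeq2). Cdkn1a, a cell-cycle inhibitor, was at 10.5, 11.4 and 11.2 CPM against 13.9, 24.9 and 20.1 CPM (0.82, SE 0.279). Sgk1, a kinase of ion transport, was at 76.3, 76.8 and 66.9 CPM against 92.0, 179 and 120 CPM. Ctrl library 1 held 195 CPM of Sgk1, above all 6, and the other Ctrl libraries 66.6 and 80.4 CPM.

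The labels do not say what a replicate number marks. The numbers of the 2 groups met the minimum set for pairing, but this was judged from these same libraries and does not establish a paired design. With the number as a block in a fit of these 6 libraries 8 genes passed. Values without the block are from the fit of all 9. Slc38a2, a sodium-coupled neutral amino acid transporter, was at 173, 190 and 189 CPM in MPTP and 226, 266 and 244 CPM in the diet group (log2 fold change 0.42, SE 0.0959). Its adjusted p was 0.55 by edgeR with 9 libraries and no block, 0.0149 with 6 libraries and the block, and 0.0134 by DESeq2. It was the only gene called by both the block and DESeq2, and was named after its values were seen, as were the genes called by a single alternative. Gfap, the intermediate filament of astrocytes, was at 170, 223 and 195 CPM against 219, 295 and 286 CPM: the groups overlapped, each diet library lay above the MPTP library of its number, and the adjusted p was 0.63 without the block and 0.0149 with it. Fkbp5, a co-chaperone of steroid receptors, was at 22.7, 29.1 and 28.9 CPM against 31.1, 53.4 and 53.1 CPM, with an adjusted p of 0.659 without the block and 0.0265 with it. Zc3h11a, at 18.7, 14.5 and 11.5 CPM against 45.3, 30.9 and 18.7 CPM, had an adjusted p of 0.0149 with the block. The other 4, Gm45062, Gm21887, Gm47283 and Gm28048, were at 0 in several libraries: Gm45062 was detected in diet library 2 alone of the 6, and Gm21887 and Gm28048 in MPTP libraries 1 and 3 alone.

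In the list of fatty acid synthesis and desaturation 8 of 28 members lay above MPTP, the median log2 fold change was -0.046, and 3 (Fasn, Srebf1 and Mcat) were entirely below (beside 7.12% of all genes) against 0 above. Its scores were -0.031, 0.033 and -0.0019 in MPTP and -0.075, 0.012 and -0.058 in the diet group. Diet library 2 thus lay within the MPTP range. Srebf1, the transcription factor of this pathway, was at 93.1, 99.8 and 101 CPM in MPTP and 88.1, 88.7 and 81.8 CPM in the diet group (log2 fold change -0.19, SE 0.0619, adjusted p = 0.609 by edgeR). Acaca and Acly, which supply malonyl-CoA and acetyl-CoA, overlapped between groups with log2 fold changes of -0.063 and -0.074. Scd1, the desaturase that makes oleate and another SREBP target, stood on the other side at 471, 506 and 447 CPM against 560, 498 and 532 CPM (0.16, SE 0.0545), with diet library 2 below MPTP library 2.

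The list of cholesterol synthesis and uptake had 10 of 32 members above MPTP and a median of -0.058. Of these 32, 8 were entirely below, beside 7.12% of all genes, and 2 entirely above. Fdft1, squalene synthase, was at 102, 104 and 109 CPM in MPTP and 94.5, 98.9 and 86.0 CPM in the diet group (log2 fold change -0.17, SE 0.0590, adjusted p = 0.625 by edgeR). Nsdhl, a sterol dehydrogenase, was at 27.2, 24.5 and 25.6 CPM against 23.1, 23.8 and 20.9 CPM (-0.19, SE 0.0900). Dhcr7, which reduces a sterol double bond late in the pathway, was at 36.2, 42.2 and 37.4 CPM against 33.0, 33.7 and 35.3 CPM (-0.18, SE 0.0858). The groups did not overlap in these 3 genes, and Mvd and the regulator Srebf2 (-0.24 and -0.10) were entirely below as well, as was the cholesterol exporter Abcg1 (-0.078). Sqle, squalene epoxidase, at 69.2, 83.5 and 84.5 CPM against 66.8, 74.9 and 66.7 CPM, overlapped between groups (-0.19, SE 0.0797). The members entirely above were Abca1, which exports cholesterol, with a log2 fold change of 0.19 (SE 0.0764), and the oxysterol receptor Nr1h3 with 0.28 (SE 0.190). The list scores were -0.047, 0.013 and 0.034 in MPTP and -0.091, 0.0012 and -0.076 in the diet group, so that diet library 2 lay within the MPTP range.

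**Figure D3:**
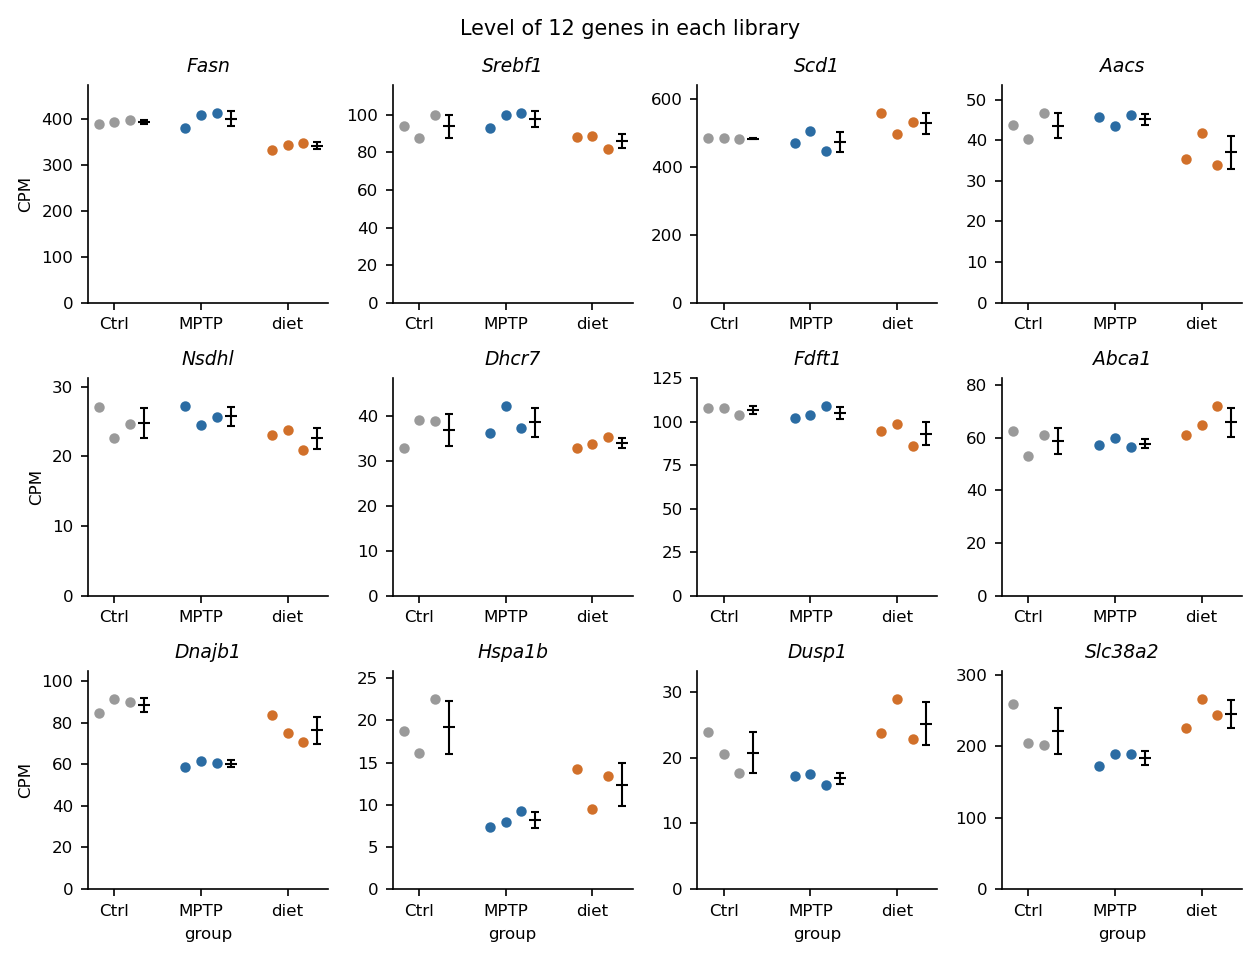
CPM (vertical axes, from 0) of 12 genes in each of 9 libraries, with the group mean and SD (n = 3) beside the points. Fasn, Srebf1, Aacs, Nsdhl, Dhcr7 and Fdft1 lie lower in the diet group than in MPTP without overlap, and Dnajb1, Hspa1b, Dusp1, Slc38a2 and Abca1 lie higher without overlap.

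Genes that use ketone bodies lay mostly near their MPTP level. Of 15 tested 4 lay above MPTP, with a median log2 fold change of -0.071, which was -0.019 without MPTP library 2, -0.031 without diet library 1, -0.043 without diet library 2 and -0.046 without MPTP library 1. Adjusted for the meningeal score it was -0.011. Oxct1, which activates acetoacetate, was at 298, 266 and 247 CPM in MPTP and 294, 279 and 279 CPM in the diet group (log2 fold change 0.070, 95% interval -0.071 to 0.21). Bdh1 was at 40.5, 38.4 and 34.3 CPM against 38.1, 37.5 and 36.4 CPM (-0.016, -0.18 to 0.15), and Acat1 at 97.4, 98.2 and 89.4 CPM against 89.9, 89.9 and 91.5 CPM (-0.071, -0.19 to 0.043). All 3 overlapped, and their intervals held no difference past 1.5-fold. The monocarboxylate transporter Slc16a1, of endothelium and glia, had a log2 fold change of 0.038 (-0.099 to 0.18). The member that stood apart was Aacs, which activates acetoacetate in the cytosol for lipid synthesis: it was at 45.7, 43.5 and 46.1 CPM against 35.4, 41.7 and 33.8 CPM, entirely below MPTP (-0.29, SE 0.0851, adjusted p = 0.587 by edgeR).

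Fatty acid oxidation genes had 21 of 46 members above MPTP, a median of -0.011, 4 members entirely above and 3 entirely below, shares near the 6.79% and 7.12% of all genes. Entirely above were Crot (log2 fold change 0.21, SE 0.0855), Cpt2 (0.27, SE 0.124), Slc25a20 (0.22, SE 0.113) and Ech1 (0.17, SE 0.0743), and those entirely below included Acss1 (-0.12) and Slc27a4 (-0.091). Cpt1a, the entry step, was at 41.4, 36.9 and 42.0 CPM against 38.1, 39.6 and 38.0 CPM (-0.057, 95% interval -0.21 to 0.093). PPAR and fasting targets had 15 of 25 above and a median of 0.067, with Ppara alone entirely apart. Adjusted for the meningeal score this median was -0.0085, and the list's scores, -0.16, 0.13 and 0.028 in MPTP and -0.12, 0.20 and 0.20 in the diet group, were like the meningeal scores lowest in library 1 of each group. Pdk4, which holds back glucose oxidation in fasting, was at 10.1, 9.70 and 12.6 CPM against 10.8, 21.3 and 14.6 CPM, a log2 fold change of 0.53 (SE 0.223) with diet library 2 the highest, and of 0.23 to 0.73 with single libraries left out. Angptl4 and Ucp2 had log2 fold changes of 0.24 and 0.067, and the glucose-responsive Txnip of 0.17; all 3 overlapped. In glycolysis 20 of 37 members lay above MPTP, with a median of 0.0038. Antioxidant genes under NRF2 had 23 of 33 above (median 0.046), genes of insulin and mTORC1 signalling 24 of 33 (0.036), proteasome genes 24 of 33 (0.059) and autophagy and lysosome genes 21 of 36 (0.027). In the insulin and mTORC1 list 5 of the 33 members were nonetheless entirely below (beside 7.12% of all genes) and 2 entirely above (beside 6.79%).

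Most respiratory chain subunits lay slightly above MPTP, by an amount that depended on single MPTP libraries. In complex I, the target of the MPTP product, 37 of 43 subunits were above, the median log2 fold change was 0.059, and 8 were entirely above (beside 6.79% of all genes) against 0 below. In complexes III to V the counts were 35 of 39, with a median of 0.071, and 3 were entirely above, a share near that of all genes. Without MPTP library 3 the medians were 0.026 and 0.033, and without MPTP library 1 they were 0.12 and 0.13. Adjusted for the meningeal score they were 0.11 and 0.11. Ndufb2 was at 54.5, 52.2 and 52.5 CPM in MPTP and 59.6, 59.6 and 61.0 CPM in the diet group (log2 fold change 0.18, SE 0.0575, adjusted p = 0.593 by edgeR). Cox7c was at 55.5, 56.8 and 45.4 CPM against 62.9, 62.2 and 60.9 CPM (0.24, SE 0.0794). The scores of complex I were 0.092, 0.0053 and -0.097 in MPTP and 0.10, 0.079 and 0.063 in the diet group: MPTP library 3 was the lowest, and MPTP library 1 lay within the diet range. These transcripts are short, with a median implied length of 907 bases in complex I and 826 in complexes III to V against 3191 over all genes. With all genes in 5 classes of rising length the medians were 0.015, -0.0044, 0.0029, 0.0023 and -0.0041, highest in the shortest class but with no steady order, and the part of length in the subunits' values was not tested. Cytosolic ribosomal protein genes, at 845 bases, had 48 of 75 above and a median of 0.019.

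Dopamine neuron genes showed little difference between the 2 groups. Of 30 tested 14 lay above MPTP, with a median log2 fold change of -0.0082. Th, tyrosine hydroxylase, was at 55.3, 63.8 and 68.0 CPM in MPTP and 78.2, 59.3 and 48.1 CPM in the diet group (-0.011, 95% interval -0.55 to 0.53). Slc6a3, the dopamine transporter, was at 126, 116 and 93.1 CPM against 144, 97.8 and 86.2 CPM (-0.034, -0.59 to 0.52). The diet libraries spanned the MPTP range in both genes, and Ctrl stood at 87.0 ± 19.9 and 157 ± 26.2 CPM (SD, n = 3). In bulk tissue fewer cells of a type and less RNA per cell cannot be told apart. Both intervals reached past 0.5 log2 units in either direction. Slc18a2, Ddc and Nr4a2 had log2 fold changes of 0.12, 0.048 and -0.034 and overlapped. Sncg, gamma-synuclein, was at 20.5, 22.2 and 21.9 CPM in MPTP and 24.1, 25.9 and 25.5 CPM in the diet group (log2 fold change 0.22, SE 0.0795), entirely above MPTP.

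The mural cell list had 10 of 20 members above MPTP and a median of -0.013, with 6 entirely above (beside 6.79% of all genes) and 2 entirely below (beside 7.12%). Myh11, smooth muscle myosin, was at 16.9, 18.2 and 20.8 CPM in MPTP and 21.8, 38.3 and 29.7 CPM in the diet group (log2 fold change 0.68, SE 0.188, adjusted p = 0.587 by edgeR, 0.0494 by DESeq2). Acta2, smooth muscle actin, was at 15.4, 16.1 and 19.3 CPM against 19.7, 39.5 and 34 CPM (0.87, SE 0.272), and Myl9 and Tpm2 had log2 fold changes of 0.42 and 0.36. Diet library 1 was the lowest of its group in Myh11, Acta2 and Myl9. With the meningeal score as a covariate the values were 0.43 for Myh11 and 0.47 for Acta2. The pericyte genes differed among themselves: Cspg4 and Abcc9 were entirely below MPTP, with log2 fold changes of -0.16 and -0.19, Higd1b was entirely above (0.31, SE 0.255), and Rgs5 overlapped (-0.073). Of 28 endothelial genes 15 lay above, and 0 did so without overlap. The receptors Kdr (-0.39) and Tie1 (-0.23) were entirely below, a share near the 7.12% of all genes.

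Among glia, reactive astrocyte genes had 15 of 24 above MPTP and a median of 0.19, or -0.038 after adjusting for the meningeal score. Vim, a filament protein shared with fibroblasts, had a log2 fold change of 0.20 and Serpina3n, a marker of reactive astrocytes, of -0.18; both overlapped. Homeostatic astrocyte genes had 13 of 26 above and a median of 0.0016. Homeostatic microglia genes had 13 of 24 above (median 0.057), disease-associated microglia genes 12 of 21 (0.012) and interferon genes 12 of 27 (-0.024). Mature oligodendrocyte genes had 18 of 23 above (0.065). Ermn and Mobp were entirely above (beside 6.79% of all genes) at log2 fold changes of 0.26 and 0.21. Opalin was entirely below (beside 7.12%) at -0.25. The scores of this list overlapped between the groups. Of the 42 lists, ependyma had the lowest median, -0.48 with 2 of 12 above. Its score was -0.80, 0.43 and 0.37 in MPTP and -0.27, -0.071 and -0.76 in the diet group, so the groups overlapped. The meningeal fibroblast list had the highest, 0.75 with 23 of 23 above, and 0 of its genes were without overlap.

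**Figure D4:**
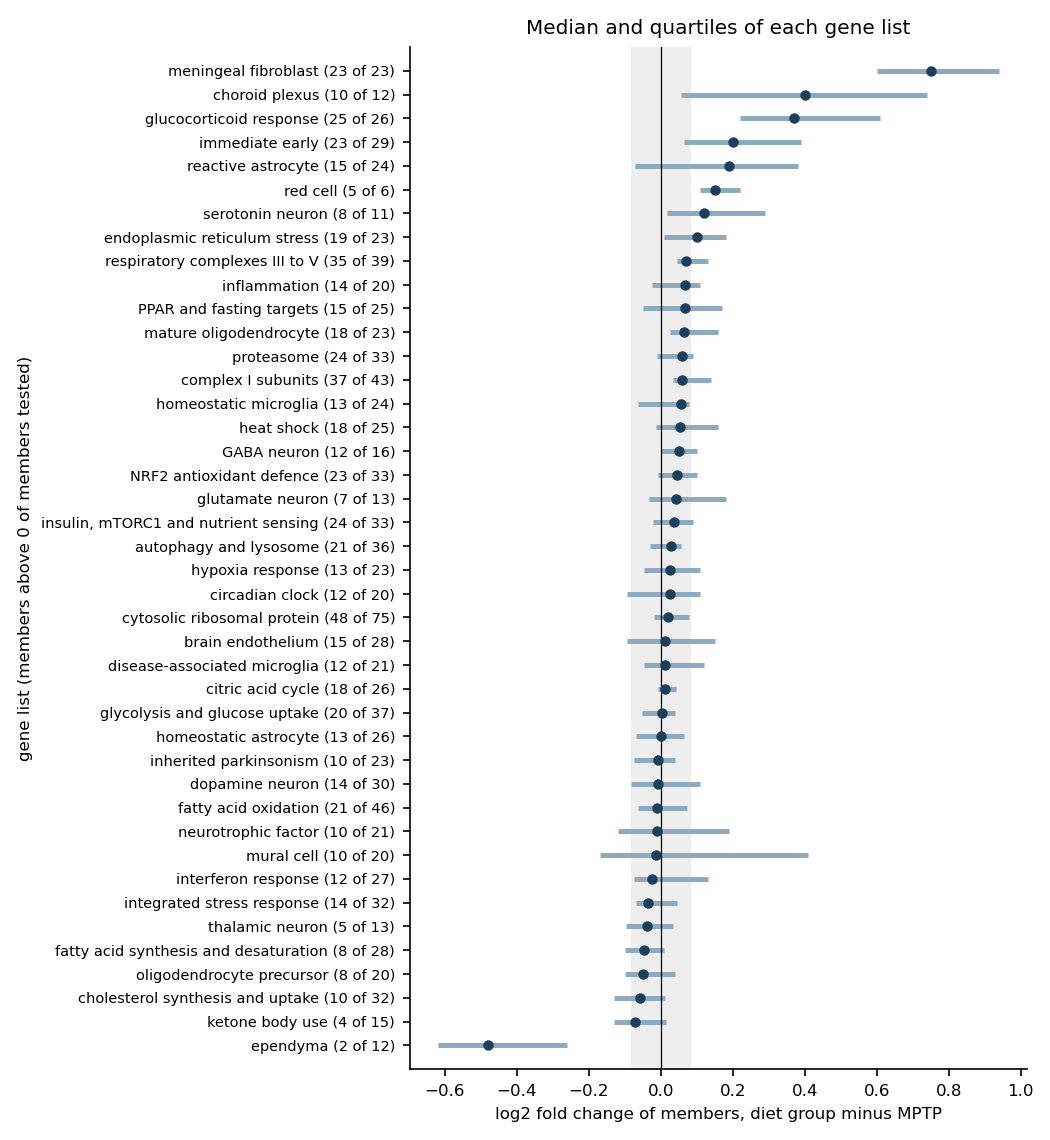
Median (point) and quartiles (bar) of the log2 fold changes of the members of 42 gene lists, diet group minus MPTP, with the number of members above 0 in brackets and the quartiles of all 13810 genes as a grey band. Meningeal fibroblast lies at 0.75, glucocorticoid response at 0.37, immediate early at 0.20 and ependyma at -0.48, and most other medians lie inside the grey band.

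**Figure D5:**
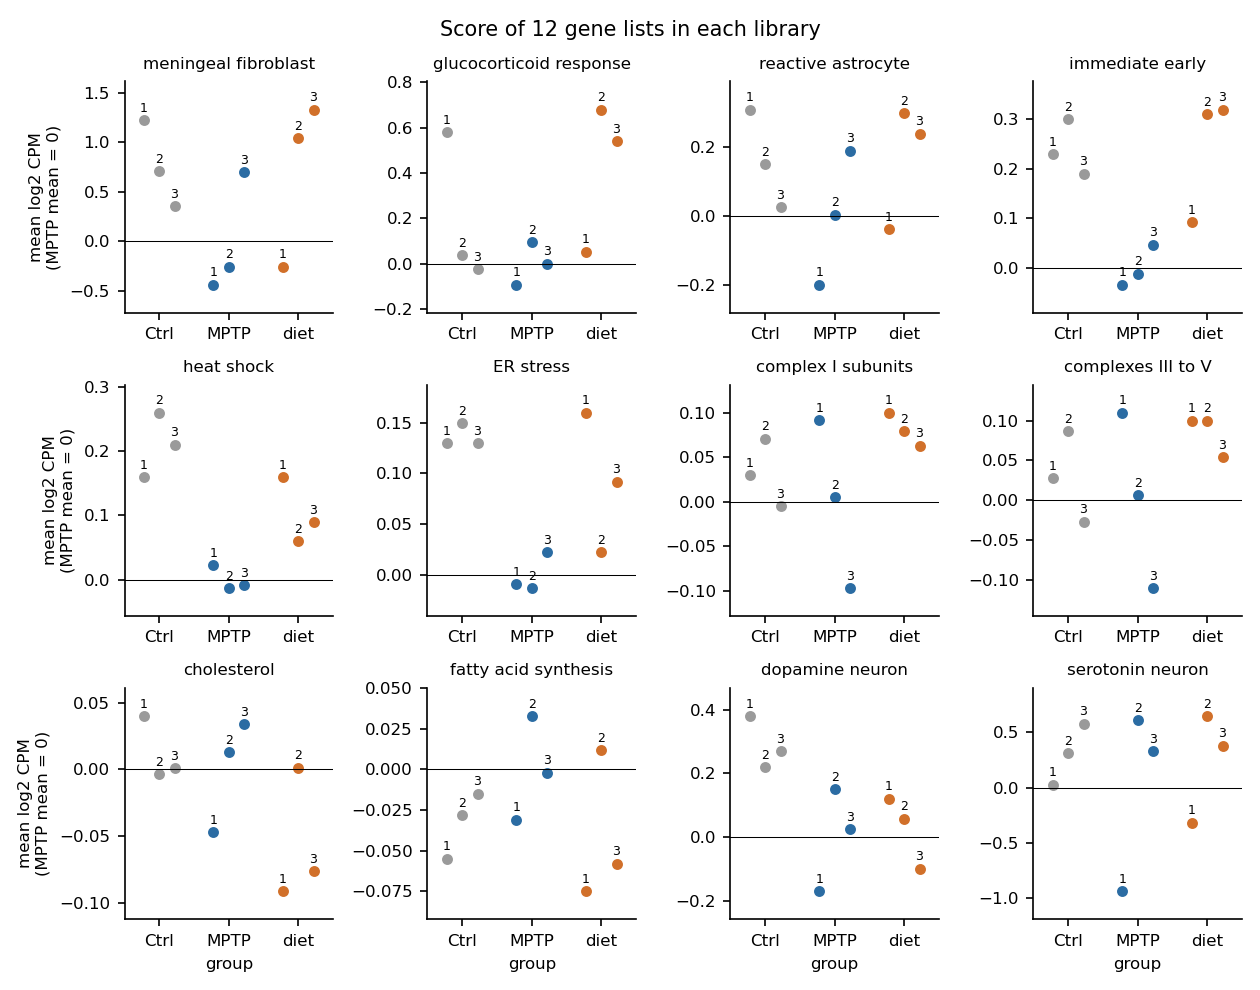
Score of 12 gene lists in each library (mean log2 CPM of the members, MPTP mean set to 0), with replicate numbers above the points and a separate vertical scale in each panel. In the meningeal, glucocorticoid and reactive astrocyte panels diet libraries 2 and 3 lie high and diet library 1 near MPTP, while in the heat shock panel all 3 diet libraries lie above MPTP.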

How the data were processed

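Libraries were made from total RNA of the substantia nigra pars compacta with the NEBNext Ultra kit, per the labels' protocols. The authors deposited 1 table holding raw counts and FPKM values of each gene and library, per the file headers. The builds GRCm38 and mm10 are named in the submitters' processing notes. Aligner, counter, annotation release and strandedness were not given in the sources used here, so overlapping or antisense genes cannot be separated. Libraries were grouped by title, and those of a group differed by more than sampling noise. The labels do not say that each came from its own animal, so p-values reflect the spread among libraries only.

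From the deposited counts, edgeR 4.0.16 (TMM, robust quasi-likelihood, 9 libraries, 3 groups, R 4.3.3) tested 14949 genes averaging at least 0.5 FPKM, 1139 of them unannotated, with Benjamini-Hochberg adjustment over all. Intervals are 95% intervals of the fit. Alternatives were DESeq2 1.42.0, limma 3.58.1 on log2(FPKM + 0.1 or 1), other filters and scalings, covariates, a replicate block and left-out libraries. Same-numbered MPTP and diet libraries correlated at 0.182, 0.107 and 0.113 in their deviations from group means, other pairs at -0.15 to 0.0413, which met the minimum of 0.1 for pairing; the fit reported has no block. The implied length of a transcript is its count over its FPKM and library total. Coordinates are from GENCODE M21, which matched 22022 identifiers, and promoters from RefSeq, which held a window for 87 of 116 genes looked up. The genes and 42 lists were chosen with earlier results of these data known. Named genes were the 12 of smallest p in each direction at a mean FPKM of 1 or more, up to 4 of smallest p in each list described, and 20 set ones, among them Th and Slc6a3; further members are named from the lists, for not overlapping or for their known role. Some genes are not reported here. The edgeR fit reported was tested on simulated data, and the alternatives were not.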

Additional observations from a re-analysis of the deposited data

How the results depend on the processing

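The count of called genes was 0 under most alternatives, 17 with DESeq2 and 8 with the replicate block, and ranged from 0 to 1 with single libraries left out. The single calls were Hist2h2aa2 without MPTP 1, and also with MPTP 1 and diet 1 both left out (1 call), and Fsd1l without MPTP 2. With unannotated genes counted as well, the replicate block called 11 genes and DESeq2 called 19. Leaving out libraries 1 of both groups put the fatty acid oxidation median at 0.019, and single libraries left out gave -0.026 to 0.022. Leaving out single libraries gave medians of 0.045 to 0.14 for endoplasmic reticulum stress and 0.018 to 0.10 for heat shock, and the meningeal covariate gave 0.13 for the glucocorticoid response. That covariate moved other medians away from 0, to 0.085 for heat shock and -0.076 for cholesterol synthesis and uptake. The sign turned for 7 genes with small or single-library differences. With the meningeal covariate the log2 fold change was 0.028 for Bdh1, 0.14 for Slc6a3, 0.017 for Th, -0.37 for Tph2 and -0.12 for Txnip. With the serotonin neuron covariate it was 0.0061 for Bdh1, 0.025 for Slc6a3, 0.0038 for Th and -0.068 for Tph2. Without libraries 1 of both groups it was 0.023 for Bdh1, -0.59 for Ttr and -0.024 for Ucp2. With single libraries left out it ranged from -0.08 to 0.04 for Bdh1, -0.28 to 0.11 for Slc6a3, -0.22 to 0.14 for Th, -0.15 to 0.94 for Tph2, -0.58 to 2.08 for Ttr and -0.034 to 0.13 for Ucp2. The causes were not tested. With 3 libraries a group, a difference smaller than the half-width of its own interval could not be told from 0. The intervals are not adjusted for the number of genes tested, so a larger difference was not thereby detected. By edgeR 1098 genes had an unadjusted p under 0.05, and 0 passed after adjustment (lowest adjusted p 0.469).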

Other observations

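Differences past 2-fold were found for 83 genes, and in 18 of them the diet and MPTP libraries did not overlap. These genes were named after their values were seen, and most had low counts. Kcnh3, a potassium channel of forebrain neurons, was at 2.18, 2.60 and 2.05 CPM in MPTP and 3.49, 4.46 and 9.37 CPM in the diet group, a log2 fold change of 1.34. Fmo2, a flavin mono-oxygenase, was at 1.70, 1.60 and 1.91 CPM against 2.57, 4.61 and 6.10 CPM (1.35). Both were highest in diet library 3, as were the forebrain genes Crym, at 16.9 CPM there against 1.19 to 4.40 CPM in the other MPTP and diet libraries, and Neurod6, at 7.21 CPM against 1.5 to 4.70 CPM. Pomc, the precursor of melanocortins, was at 4.53, 4.65 and 10.7 CPM in MPTP and 3.37, 2.78 and 1.97 CPM in the diet group (-1.29), with MPTP library 3 the highest.

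Some large differences came from 1 or 2 libraries. Slc6a5, the glycine transporter of brainstem inhibitory neurons, was at 75.7 CPM in diet library 2 and between 3.37 and 13.5 CPM in the other 5 libraries. Lars2, a mitochondrial leucyl-tRNA synthetase, was at 317 CPM in MPTP library 1 and between 34.8 and 43.8 CPM in the others. Fsd1l was at 6.20 and 7.23 CPM in MPTP libraries 1 and 3, and at 41.7 CPM in MPTP library 2 and 45.0, 46.9 and 45.7 CPM in the diet group. Ttr of the choroid plexus was at 69.4 CPM in diet library 1 and between 2.17 and 13.5 CPM in the others.

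Among neurotrophic genes, Igf1 was at 14.7, 11.8 and 12.1 CPM in MPTP and 15.9, 14.5 and 18.9 CPM in the diet group (log2 fold change 0.35, SE 0.123, adjusted p = 0.625 by edgeR), with an overlap of 1 library. Fgf1 was at 144, 149 and 141 CPM against 165, 204 and 150 CPM (0.26, SE 0.0891) and did not overlap. Ngfr, the low-affinity neurotrophin receptor, was at 6.43, 6.31 and 6.49 CPM against 4.53, 4.40 and 5.30 CPM (-0.44, SE 0.173), entirely below. Vegfa was entirely below as well, with a log2 fold change of -0.13, and Bdnf overlapped at 0.16.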
